A study of Rattus norvegicus with 36 samples.

Results

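The genes described here mark the stem cell zone and the crypt of the intestinal epithelium. They are Lgr5, Ascl2, Olfm4, Smoc2, Axin2, Rnf43, Ephb2, Ephb3, Sox9 and Cd44, which were taken by name from the gene count table, and all 10 were found among its 24773 genes, once each. RNA-seq had been run on whole ileum and whole proximal colon of male UCD-T2DM rats, a line of obese rats that becomes diabetic spontaneously in adulthood, with 6 rats per group and both tissues from each of the 18 rats. ND rats had no diabetes and were 70 days old. D1M rats were 168 to 172 days old and had been diabetic for 22 to 23 days, and D3M rats were 172 to 173 days old and had been diabetic for 88 to 116 days. The labels give no drug or diet for any group. Age differed together with diabetes between ND and both diabetic groups, so age and diabetes cannot be told apart there. D1M and D3M rats were of nearly the same age, but D3M rats had become diabetic younger and weighed less. Time with diabetes, age at onset and body weight therefore cannot be told apart between them. Among D3M rats, P762 had been diabetic the longest (116 days) and P780 the shortest (88 days).

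The epithelium of the gut is renewed from stem cells at the base of the crypts. Their daughters divide in the transit-amplifying zone, move up and differentiate, and Wnt signals from the niche, strengthened by R-spondins that bind Lgr5 and its relatives, keep the base of the crypt undifferentiated. Nuclear beta-catenin and TCF/LEF factors switch on a programme that holds Ascl2, a transcription factor of stem cell identity, Axin2 and Rnf43, which both dampen Wnt signalling in return, Sox9, a transcription factor of crypt base and progenitor cells, Cd44, a hyaluronan receptor on crypt cells and on leukocytes, and the receptors Ephb2 and Ephb3, which sort cells along the crypt by repulsion from ephrin-B ligands. Olfm4 and Smoc2 are secreted proteins of the Lgr5 stem cell signature in mouse, where Olfm4 marks stem cells of the small intestine.

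Total counts were 12279059 to 21510043 per ileum library and 10024041 to 18299050 per colon library. The libraries had been run on 3 flow cells that were not balanced between groups: 4 D3M ileum libraries were on flow cell 1 and 2 on flow cell 3, against 1 ND ileum library on flow cell 1, 3 on flow cell 2 and 2 on flow cell 3. Flow cell was therefore a term in every test. The ileal genes Fabp6, Slc10a2, Slc6a19 and Apoa4 summed to 9753 CPM (read counts scaled to library size) in 1 ND colon library (rat K4028) and to at most 28.4 CPM in the other colon libraries. In the ileum, the colonic genes Car1, Car4, Hoxd10 and Hoxb13 summed highest in ND rat K4040 (3905 CPM) and D3M rat P762 (1608 CPM), both on flow cell 3. The mean log2 CPM of 13 B cell genes, which in whole intestine can come from lymphoid follicles, was over 3 in 3 ND, 2 D1M and 1 D3M ileum libraries, called rich in B cell genes here, and the sum of these genes ranged over 6.24 to 352.5 CPM in D3M and 18.3 to 1041 CPM in ND ileum.

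The stretch just before the start of transcription was printed for 4 genes to set Axin2 and Cd44, whose windows held the letters of the TCF/LEF motif, beside Ephb2 and Olfm4, whose windows did not. RefSeq start sites (GRCr8) were matched for 7 of the 10 genes. Each run below gives the 250 bases before the start, 5′ to 3′ on the gene's strand, with CTTTGAA or CTTTGAT (either strand, no overlap between them) in capitals.
Axin2: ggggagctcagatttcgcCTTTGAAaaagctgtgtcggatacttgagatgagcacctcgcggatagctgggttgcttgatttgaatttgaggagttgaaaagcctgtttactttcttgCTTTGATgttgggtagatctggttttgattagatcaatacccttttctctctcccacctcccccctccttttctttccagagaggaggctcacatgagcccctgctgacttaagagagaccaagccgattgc
Cd44: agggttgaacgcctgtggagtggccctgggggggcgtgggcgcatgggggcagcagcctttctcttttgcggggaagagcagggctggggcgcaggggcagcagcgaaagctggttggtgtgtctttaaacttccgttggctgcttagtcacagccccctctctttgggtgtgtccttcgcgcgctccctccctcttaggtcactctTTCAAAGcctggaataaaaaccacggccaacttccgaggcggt
Ephb2: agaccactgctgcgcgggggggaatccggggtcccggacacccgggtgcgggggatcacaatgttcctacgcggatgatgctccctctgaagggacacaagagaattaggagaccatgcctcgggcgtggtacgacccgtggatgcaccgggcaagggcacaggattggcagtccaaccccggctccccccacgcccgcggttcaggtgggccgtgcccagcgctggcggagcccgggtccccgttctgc
Olfm4: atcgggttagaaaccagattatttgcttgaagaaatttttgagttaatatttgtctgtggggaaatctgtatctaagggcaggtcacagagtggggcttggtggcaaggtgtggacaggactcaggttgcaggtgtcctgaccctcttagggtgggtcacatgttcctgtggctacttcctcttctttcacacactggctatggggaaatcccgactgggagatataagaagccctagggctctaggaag
These windows lie at chr10:94398535-94398784 (+) for Axin2, chr3:109699425-109699674 (−) for Cd44, chr5:154360425-154360674 (−) for Ephb2 and chr15:61815981-61816230 (+) for Olfm4. Axin2 held CTTTGAA at −232 to −226 and CTTTGAT at −132 to −126 from the start, and Cd44 held CTTTGAA on the opposite strand at −43 to −37. The windows of Ascl2, Ephb3 and Rnf43 held neither. One or the other was present in 7.58% of the 33469 windows of this length, so a match is a description of the letters and not a bound site.

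In the ileum of D3M rats the fitted estimates of the crypt genes lay mostly below ND, and Ephb2 was the 1 gene of the 10 whose difference passed the test. Ephb2 was 0.628 times its ND level after adjustment for flow cell (log2 fold change −0.67, SE 0.15, FDR 0.00917). The estimate was negative for 9 of the 10 genes, beside 58.4% of the 13026 genes tested. The median log2 fold change was −0.43, against −0.08 over all genes tested. FDR here is the Benjamini-Hochberg adjusted p of edgeR's quasi-likelihood test over all genes tested, and 12.5% of those genes passed 0.05, 4.22% as lower in D3M. At an unadjusted p under 0.05 there were 5 of the 10, all lower in D3M, beside 29.7% of all genes in either direction and 14.7% as lower. Lgr5, with only 0 to 13 reads per ileum library, is among these 5. The flow cells differed in this. On flow cell 3, with 2 D3M and 2 ND rats, the mean of log2(CPM + 1) was lower in D3M for every crypt gene. On flow cell 1, with 4 D3M rats and 1 ND rat, it was lower only for Ephb2 (−0.23), Smoc2 (−0.60) and Sox9 (−0.03). A bulk sample cannot tell fewer crypt cells from less RNA in each of them. CPM are shares of a library, so more RNA from other cells would also lower them. The paper reported taller villi and deeper crypts in D3M than in ND ileum. Which of these lay behind the lower values was not tested.

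**Figure D1:**
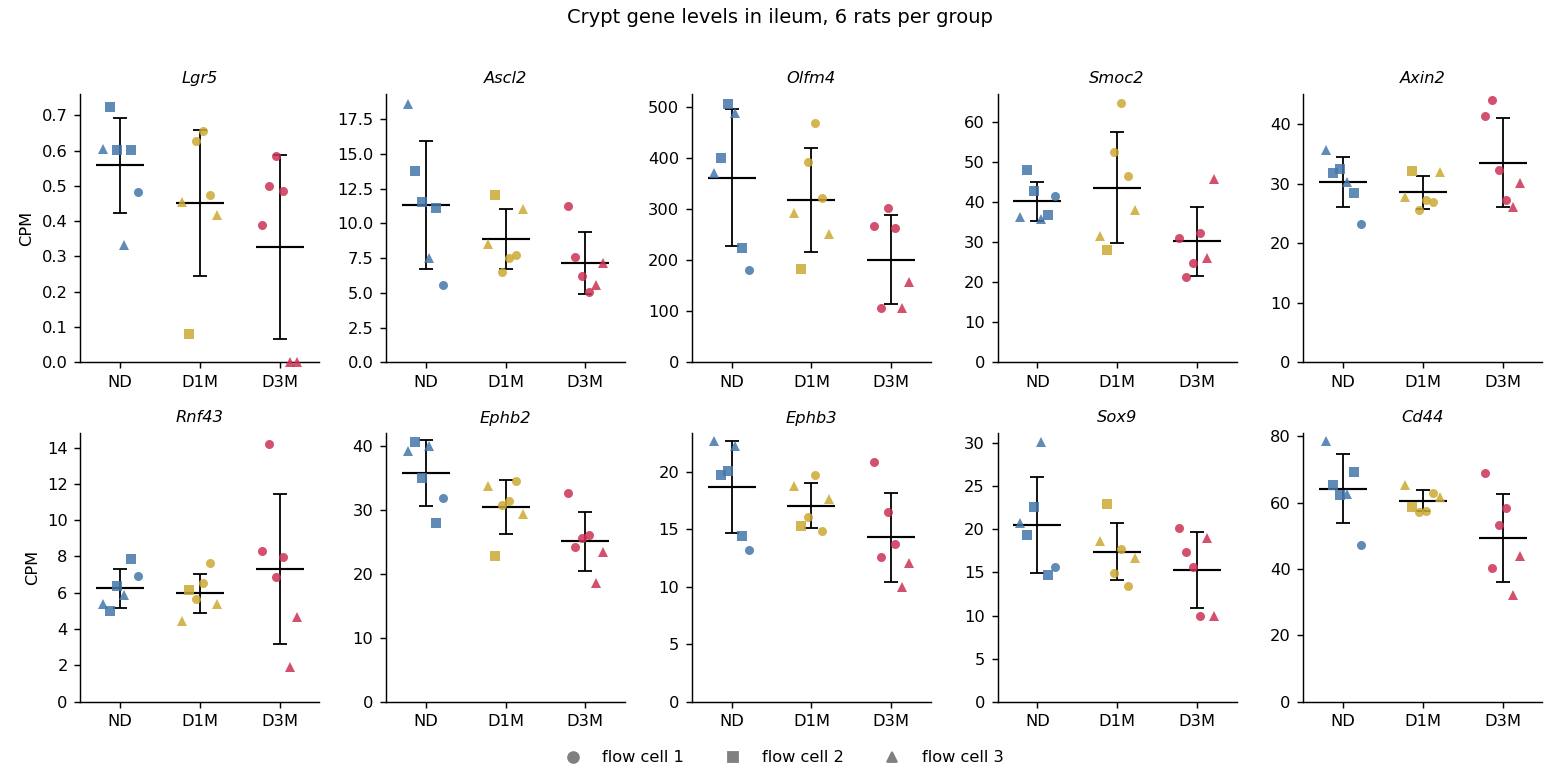
CPM of the 10 crypt genes in ileum, each panel from 0, with 1 point per rat in ND, D1M and D3M (6 each), the mean as a line and the SD as bars, and the flow cell as the shape of the point. Ephb2 reaches 32.6 CPM at most in D3M rats, and 5 of these 6 rats lie below the lowest ND rat (28.0 CPM).

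Ephb2, the receptor that is highest at the base of the crypt in mouse, is a gene on the minus strand of chromosome 5 (rn6, 155022493 to 155204456). Its lowest, median and highest levels were 28.0, 37.1 and 40.6 CPM in ND ileum, 22.7, 31.0 and 34.5 CPM in D1M ileum and 18.5, 24.9 and 32.6 CPM in D3M ileum. The D3M and ND ranges overlapped through a single D3M rat, K3959, and all 6 D3M rats were below the ND median. On flow cell 3, the mean was 20.9 CPM in 2 D3M rats and 39.6 CPM in 2 ND rats. On flow cell 1, it was 27.1 CPM in 4 D3M rats and 31.8 CPM in the only ND rat, K4048. Ephb2 also fell under DESeq2 (−0.64, adjusted p 0.000434) and whichever single library was left out (FDR 0.00244 to 0.0352). Without ND ileum K4040, 1 of the 2 ND rats on flow cell 3, Ephb2 was −0.64 (FDR 0.0269).

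The Ephb2 call did not survive every choice of libraries. It was −0.47 (FDR 0.11) without D3M rats P762 and P780, the lowest of their group in Ephb2 and the only D3M ileum libraries on flow cell 3, and −0.59 (FDR 0.0657) without the 6 libraries rich in B cell genes, both chosen after the levels had been seen. It was −0.62 (FDR 0.0881) when D1M rats were left out of the fit, and −0.92 (FDR 0.0545) on flow cell 3 alone. Over its 33 alternatives Ephb2 passed in 29, with FDRs of 0.000434 to 0.11. Its median was 31.0 CPM both in the 6 ileum libraries rich in B cell genes and in the other 12.

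**Figure D2:**
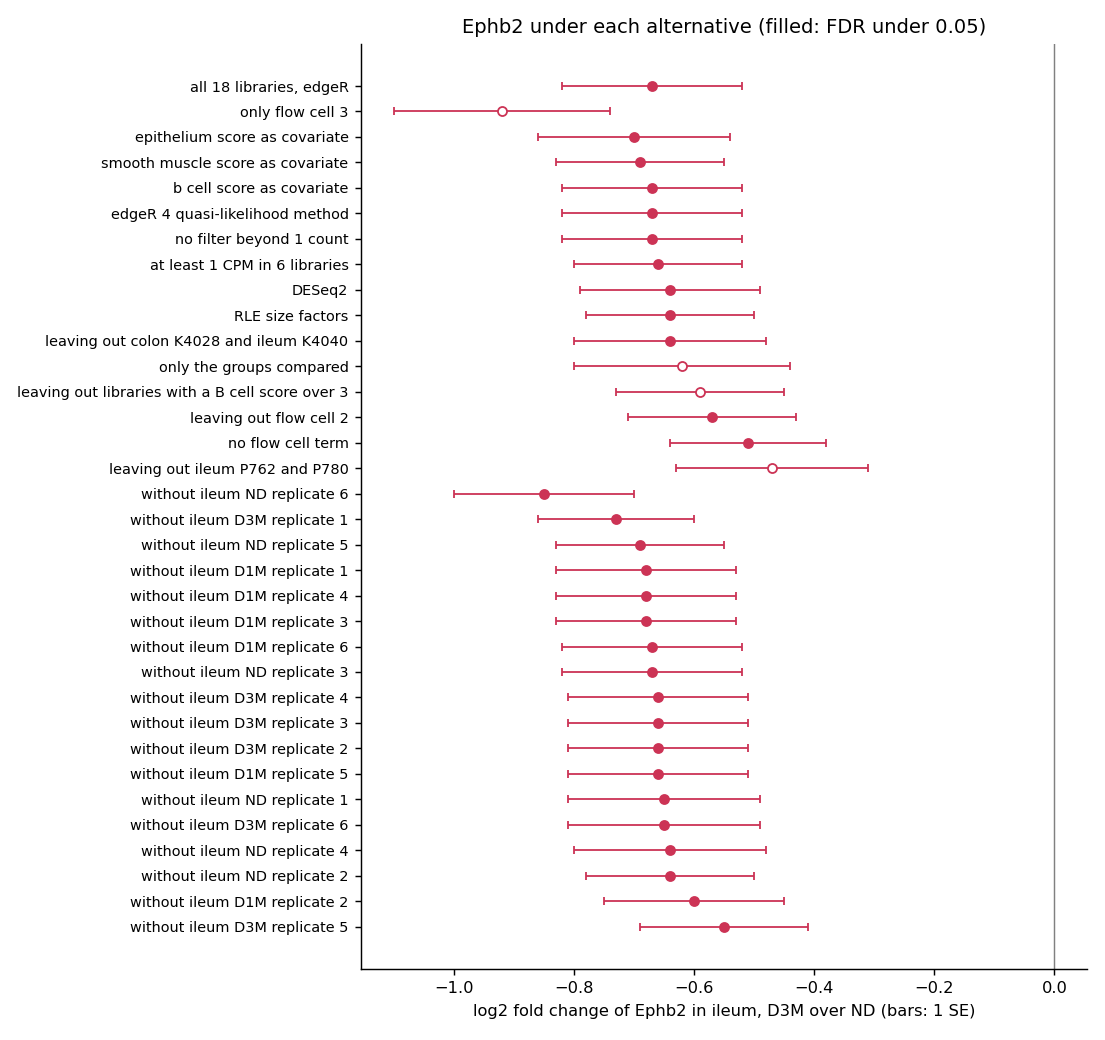
Log2 fold change of Ephb2 in ileum, D3M over ND, with 1 SE, in the fit of all 18 libraries (top), under 15 alternatives and with each ileum library left out. All estimates lie below 0, from −0.92 to −0.47, and the open points mark the 4 that missed an FDR of 0.05.

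Ephb3, the second of these receptors (chromosome 11, 83527962 to 83546674, minus strand), was at 13.2, 19.8 and 22.7 CPM (lowest, median, highest) in ND, 14.8, 16.9 and 19.7 CPM in D1M and 9.97, 13.1 and 20.9 CPM in D3M ileum. The D3M and ND ranges overlapped and the difference did not pass (−0.46, SE 0.21, FDR 0.156). Of the 6 D3M rats, 3 lay below all ND rats. On flow cell 1, Ephb3 averaged 15.9 CPM in 4 D3M rats and 13.2 CPM in K4048, and on flow cell 3 it averaged 11.0 CPM in 2 D3M rats and 22.4 CPM in 2 ND rats. The estimate passed without ND rat K4048 (−0.73, FDR 0.0238) and without D3M rat K3959 (−0.56, FDR 0.0499). It was −0.29 (FDR 0.433) without D3M rat P762 and −0.07 (FDR 0.898) without both P762 and P780, with FDRs of 0.0238 to 0.898 over its 33 alternatives.

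Among the stem cell genes with more than a few reads, Olfm4 (chromosome 15, 62406873 to 62429449, plus strand) had the lowest estimate. Its levels were 181, 385 and 505 CPM in ND, 183, 307.5 and 469 CPM in D1M and 107, 211 and 302.5 CPM in D3M ileum, so that every D3M rat was below the ND median and 3 were below all ND rats. The fitted log2 fold change was −1.18 (SE 0.41, FDR 0.0715), which did not pass with edgeR and passed with DESeq2 (−1.15, adjusted p 0.00866). The flow cells differed here. On flow cell 3 the mean was 132 CPM in 2 D3M rats and 430 CPM in 2 ND rats. On flow cell 1 it was 235 CPM in 4 D3M rats and 181 CPM in ND rat K4048, the lowest of its group. Without K4048 the estimate was −1.69 (FDR 0.00504), without D3M rats P762 and P780 it was −0.81 (FDR 0.429), and its FDR ran over 0.00504 to 0.429 in the 33 alternatives.

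Lgr5, the R-spondin receptor that defines the stem cells (chromosome 7, 58448277 to 58587787, minus strand), was barely sequenced. Its ileum counts were 7 to 13 reads per library in ND, 1 to 13 in D1M and 0 to 11 in D3M, and D3M rats P762 and P780 had none. In CPM the medians were 0.602 in ND, 0.464 in D1M and 0.437 in D3M. The fitted difference between D3M and ND was −1.46 with an SE of 0.68 (FDR 0.163). A count of 0 allows up to 3 reads, counting error only, which is 0.195 CPM in P762 and 0.167 CPM in P780. The Lgr5 gene of the annotation overlaps A930009A15Rik on the other strand, and the sources used here do not say whether reads were counted by strand.

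Ascl2 (chromosome 1, 216154002 to 216156409, minus strand) was at 5.60, 11.3 and 18.6 CPM in ND, 6.48, 8.12 and 12.0 CPM in D1M and 5.08, 6.67 and 11.3 CPM in D3M ileum. All 6 D3M rats were below the ND median, while the fitted difference was −0.36 (SE 0.30, FDR 0.452). Ascl2, which is also made by follicular helper T cells in mouse, was at 11.0 to 18.6 CPM in the 6 ileum libraries rich in B cell genes and at 5.08 to 13.8 CPM in the other 12. The part of lymphoid tissue in the Ascl2 level was not tested further. With the B cell score as a covariate, or without those libraries, Ascl2 did not pass either.

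Smoc2 (chromosome 1, 56242346 to 56374120, plus strand) was at 35.7, 39.2 and 48.1 CPM in ND, 28.0, 42.3 and 64.8 CPM in D1M and 21.4, 28.5 and 45.7 CPM in D3M ileum. Of the 6 D3M rats, 5 lay below all ND rats, and the other, P780, was the highest of its group. The fitted difference was −0.51 (SE 0.24, FDR 0.168) with all libraries, −0.78 (FDR 0.0209) without P780 and −0.96 (FDR 0.0321) without P762 and P780, among FDRs of 0.0209 to 0.991 over its 33 alternatives. Within flow cell 1 Smoc2 averaged 27.4 CPM in 4 D3M rats and 41.6 CPM in 1 ND rat, and within flow cell 3 it averaged 35.9 CPM in 2 D3M rats and 36.03 CPM in 2 ND rats. The 6 fibroblast genes summed to 492.5 to 775.5 CPM in D3M and 564.6 to 1060 CPM in ND ileum, and their part in the Smoc2 level was not tested.

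The Wnt feedback genes did not pass the test between D3M and ND ileum. Axin2 (chromosome 10, 97212432 to 97239642, plus strand), a scaffold of the complex that destroys beta-catenin and a direct Wnt target, was at 23.3, 31.1 and 35.7 CPM in ND, 25.6, 27.5 and 32.1 CPM in D1M and 26.1, 31.3 and 44.1 CPM in D3M ileum, and its ranges overlapped in all groups. Its difference between D3M and ND was 0.21 (SE 0.16, FDR 0.398), the 1 positive estimate of the 10. Within flow cell 1 Axin2 averaged 36.3 CPM in 4 D3M rats and 23.3 CPM in K4048, and within flow cell 3 it averaged 28.2 CPM in 2 D3M rats and 33.0 CPM in 2 ND rats, so its direction turned between the flow cells. Rnf43 (chromosome 10, 74959285 to 75028951, plus strand), a ubiquitin ligase that removes Wnt receptors from the cell surface, spread more in D3M ileum (1.89, 7.44 and 14.2 CPM) than in ND ileum (4.99, 6.14 and 7.88 CPM) and in D1M ileum (4.47, 5.91 and 7.62 CPM). The Rnf43 estimate for D3M against ND was −0.08 (SE 0.30, FDR 0.887), and its sign turned without a flow cell term (0.23). Within flow cell 1 Rnf43 averaged 9.34 CPM in 4 D3M rats and 6.90 CPM in K4048. Within flow cell 3 it averaged 3.28 CPM in 2 D3M rats and 5.64 CPM in 2 ND rats, so its direction turned as well.

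Sox9 and Cd44 were lower in D3M ileum by estimate only. Sox9 (chromosome 10, 101288489 to 101293379, plus strand) was at 14.7, 20.0 and 30.1 CPM in ND, 13.4, 17.3 and 22.9 CPM in D1M and 9.97, 16.5 and 20.1 CPM in D3M ileum (−0.32, SE 0.24, FDR 0.391). Cd44 (chromosome 3, 92696313 to 92783658, minus strand) was at 47.1, 64.0 and 78.6 CPM in ND, 57.3, 60.2 and 65.3 CPM in D1M and 32.1, 48.6 and 68.8 CPM in D3M ileum (−0.39, SE 0.19, FDR 0.17). Both overlapped between D3M and ND. The highest ND value of Sox9 was K4040, and without it the ND range ended at 22.6 CPM. Cd44 passed in 1 of 33 alternatives, without ND rat K4048 (−0.62, FDR 0.0314), whose 47.1 CPM was the lowest of its group, and was −0.21 (FDR 0.492) without D3M rat P762, −0.26 (FDR 0.407) without ND rat K4028 and −0.03 (FDR 0.946) without both P762 and P780. On flow cell 1, Cd44 averaged 55.1 CPM in 4 D3M rats against 47.1 CPM in K4048, and on flow cell 3 it averaged 38.0 CPM in 2 D3M rats against 70.6 CPM in 2 ND rats.

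**Figure D3:**
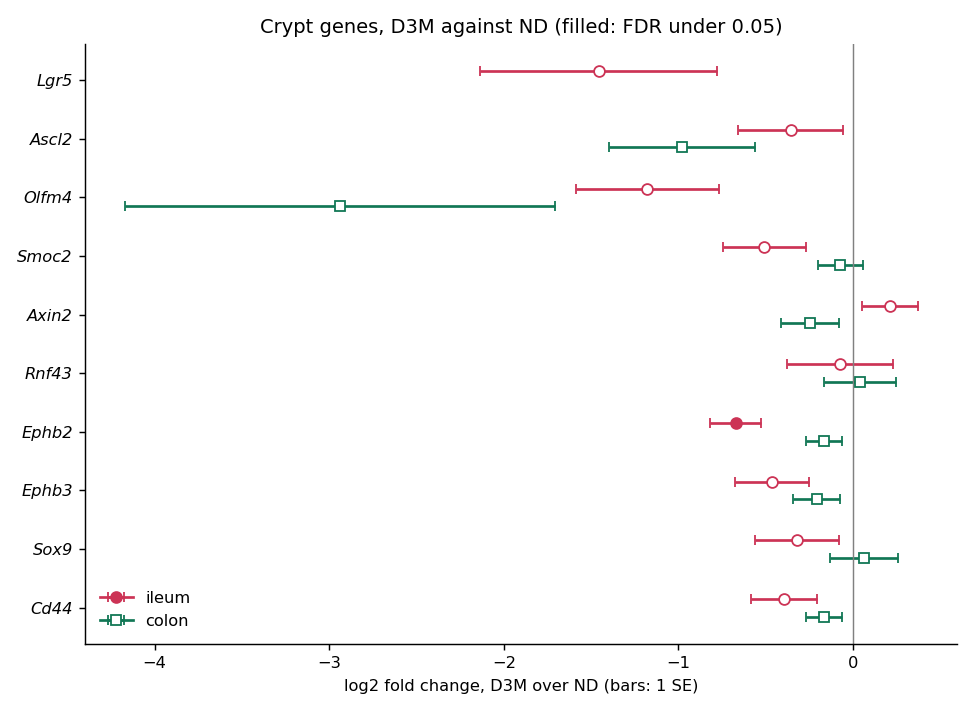
Log2 fold change, D3M over ND, with 1 SE, of each crypt gene in ileum (circles) and colon (squares), filled where the FDR is under 0.05. Ephb2 in ileum is the only filled point, Axin2 is the only ileum point above 0, and Lgr5 has no colon point because it did not pass the filter on low counts there.

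The early diabetic stage did not differ from ND in any of these genes by the test. Between D1M and ND ileum, 0 of the 10 genes passed with edgeR (0.0154% of all genes did), 1 had an unadjusted p under 0.05 (8.34% of all genes did), and DESeq2 called 0 of the 1 gene to which it gave an adjusted p. That gene at edgeR's unadjusted p was Ephb2 (−0.35, SE 0.13, FDR 0.537). The largest estimates were otherwise those of Lgr5 (−0.69) and Olfm4 (−0.43), with SEs of 0.60 and 0.37, and the estimates of Ascl2 (−0.17), Ephb3 (−0.18), Sox9 (−0.18), Rnf43 (−0.20), Cd44 (−0.09), Axin2 (−0.04) and Smoc2 (0.03) were all under 1 SE in size. Between D3M and D1M ileum, 0 of the 10 passed with edgeR (2.22% of all genes did) and 0 of 9 with DESeq2, and 3 had an unadjusted p under 0.05, beside 19.1% of all genes: Olfm4 (−0.75, FDR 0.222), Smoc2 (−0.53, FDR 0.162) and Ephb2 (−0.33, FDR 0.16). Smoc2 passed that comparison without D3M rat P780 (−0.74, FDR 0.0488). The D1M median of Ephb2, 31.0 CPM, stood between the ND and D3M medians. The remaining estimates of D3M over D1M were −0.77 for Lgr5, −0.30 for Cd44, −0.28 for Ephb3, −0.18 for Ascl2, −0.14 for Sox9, 0.13 for Rnf43 and 0.26 for Axin2.

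Other genes of the crypt are read beside the shares of all genes in D3M against ND ileum. Those were 12.5% that passed and 29.7% with an unadjusted p under 0.05. Of 19 tested genes of the Wnt pathway, 1 was higher in D3M than in ND ileum (Tcf7l2, a TCF factor, log2 fold change 0.74, FDR 0.0095) and 1 was lower (Wls, the carrier that lets Wnt proteins leave the cell, −0.90, FDR 0.00835). None of 12 other genes of the mouse stem cell signature, 4 reserve stem cell genes, 12 Notch pathway genes and 5 further ephrin-B receptors and ligands passed with edgeR, with 3, 1, 4 and 1 of them at an unadjusted p under 0.05, and DESeq2 called 0, 1, 0 and 0 of them. Their median log2 fold changes were −0.37, −0.11, −0.28 and −0.21, beside −0.08 for all genes.

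Proliferation and Paneth cell genes are set beside the 12.5% of all genes that passed, 4.22% as lower in D3M. All 19 proliferation genes had negative estimates for D3M against ND ileum, with a median of −0.56, beside 58.4% of all genes with negative estimates. Of the 19, 2 passed: Ccnb1 (−0.78, FDR 0.0464) and Ccna2 (−0.65, FDR 0.0467), the cyclins of mitosis and S phase. At an unadjusted p under 0.05 there were 14 of the 19, all lower, beside 29.7% of all genes in either direction and 14.7% as lower. DESeq2 called 7 of the 19 as lower. In colon, all 18 tested were negative for D3M against ND (median −0.45, 52.4% of all genes negative). There 0 passed with edgeR and 8 had an unadjusted p under 0.05 (10% of all genes). For D3M against D1M, all 18 in colon (median −0.484) and all 19 in ileum (−0.355) were negative, beside 52.95% and 56.5% of all genes. Of these, 0 passed with edgeR. An unadjusted p under 0.05 was found for 10 in colon and 7 in ileum (5.28% and 19.1% of all genes). The 8 Paneth cell genes tested, which belong to the niche cell at the base of the small intestinal crypt, had a median of −0.82 and 0 passed with edgeR, with 0 at an unadjusted p under 0.05 and 0 by DESeq2. Of 6 absorptive enterocyte genes, 4 were higher: Apoa1 (1.33, FDR 0.000761), Vil1 (0.70, FDR 0.0045), Fabp2 (0.87, FDR 0.00557) and Krt20 (0.58, FDR 0.0357). The other 2, Slc26a3 (0.22, FDR 0.621) and Alpi (−0.65, FDR 0.64), did not pass. The 6 together summed to 26830 to 41500 CPM in D3M and 15110 to 22470 CPM in ND ileum, without overlap, whereas their mean log2 CPM, which weights the genes equally, overlapped (9.89 to 11.55 in D3M and 10.43 to 11.01 in ND), with D3M rat P780 the lowest. The 5 general epithelial genes summed to 14100 to 19190 CPM in D3M and 11010 to 14910 CPM in ND ileum, with Krt18 lower (−0.66, FDR 0.019) and Cldn7 higher (0.49, FDR 0.0203). Smooth muscle genes summed to 1064 to 7106 CPM in D3M and 1362 to 6514 CPM in ND ileum. The part of these genes in the crypt gene levels was not tested beyond the epithelium and smooth muscle covariates, under which Ephb2 was −0.70 and −0.69 and passed.

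In the colon, no crypt gene differed between the groups by the test. The filter on low counts kept 9 of the 10, all but Lgr5. Between D3M and ND colon, 0 of 9 passed with edgeR and with DESeq2 (0.0155% of all genes passed with edgeR) and 2 had an unadjusted p under 0.05, beside 10% of all genes: Ascl2 (−0.98, SE 0.42, FDR 0.448) and Olfm4 (−2.94, SE 1.23, FDR 0.448). Between D1M and ND colon, 0 of 9 passed with edgeR, 0 of 8 with DESeq2 and 0 had an unadjusted p under 0.05, which 4.66% of all genes had. Between D3M and D1M colon, 0 of 9 passed with either tool and 1, Ephb3 (−0.30, FDR 0.945), had an unadjusted p under 0.05, which 5.28% of all genes had. With edgeR, 0% of all genes passed in these last 2 comparisons.

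Ascl2 in colon was at 2.07, 4.12 and 6.93 CPM in ND, 1.15, 3.37 and 4.41 CPM in D1M and 0.946, 2.05 and 3.15 CPM in D3M rats. All 6 D3M rats were below the ND median and 3 were below all ND rats. Olfm4 was at 2.76, 4.72 and 209 CPM in ND, 2.05, 2.89 and 9.05 CPM in D1M and 1.27, 2.27 and 4.80 CPM in D3M colon. The 209 CPM was that of K4028, the library with the high sum of ileal genes. Without it the ND range ended at 6.12 CPM and the estimate for D3M against ND was −0.71 (SE 0.46, FDR 0.708). Lgr5 had 2 to 7 reads per ND library, 0 to 9 per D1M library and 0 to 7 per D3M library, with no read in 1 D1M and 3 D3M colons.

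The other colon genes differed little in median between groups. Ephb2 was at 48.9, 62.4 and 71.3 CPM in ND, 48.2, 58.9 and 70.3 CPM in D1M and 42.0, 58.2 and 69.9 CPM in D3M colon (D3M over ND −0.17, SE 0.10, FDR 0.592). Cd44 was at 136, 149 and 190 CPM in ND, 118, 144 and 159 CPM in D1M and 122, 133 and 154 CPM in D3M colon (−0.17, SE 0.10, FDR 0.608). Axin2 had medians of 21.6 CPM in ND, 22.0 CPM in D1M and 19.9 CPM in D3M colon (−0.24, SE 0.17, FDR 0.635). Ephb3 had medians of 35.8, 35.4 and 29.7 CPM in ND, D1M and D3M colon (−0.21, SE 0.14, FDR 0.622). The medians of Smoc2 were 30.0, 26.8 and 30.0 CPM, those of Sox9 were 41.9, 43.6 and 41.3 CPM and those of Rnf43 were 5.78, 6.04 and 5.61 CPM in ND, D1M and D3M colon, and all 3 genes overlapped between groups. The estimates of D3M over ND colon were −0.07 for Smoc2, 0.06 for Sox9 and 0.04 for Rnf43, each smaller than its SE. Among D1M colons, Sox9 reached 111 CPM in rat K3986 and at most 54.2 CPM in the others.

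**Figure D4:**
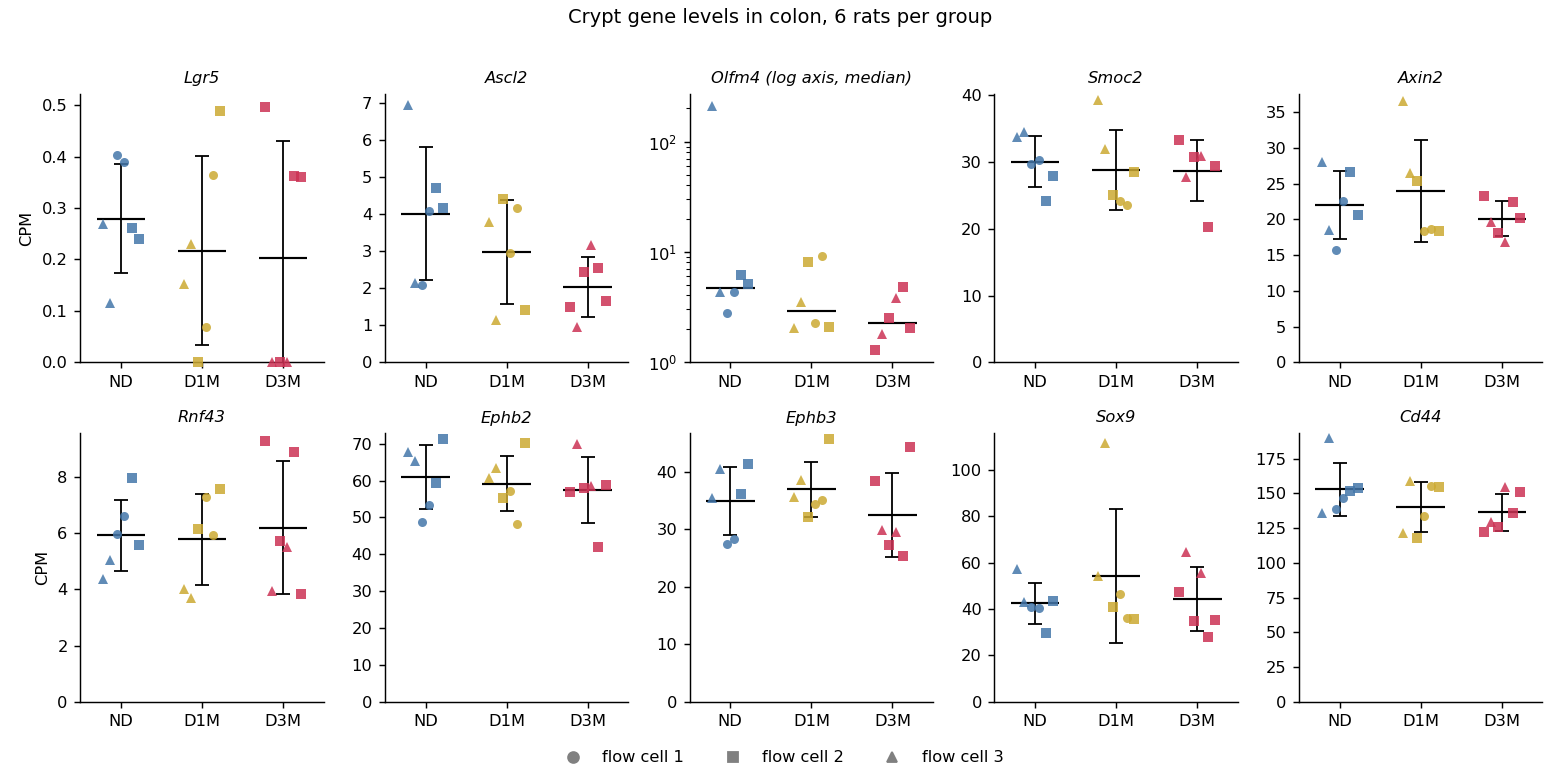
CPM of the 10 crypt genes in proximal colon, with 1 point per rat in ND, D1M and D3M (6 each), the mean as a line and the SD as bars, from 0, except Olfm4, which is on a log axis with the median as a line. The groups overlap for every gene, and the ND library of K4028 stands at 209 CPM in the Olfm4 panel.

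None of the crypt genes had a group difference that itself differed between ileum and colon by the test. For D3M against ND, the ileum difference minus the colon difference passed for 0 of 10 genes with edgeR and 0 of 9 with DESeq2, 2 had an unadjusted p under 0.05, and of all genes 1.56% passed and 16.8% had such a p. Those were Ephb2 (−0.46, SE 0.18, FDR 0.171) and Axin2 (0.50, SE 0.24, FDR 0.28). Ephb2 passed in 1 of 43 alternatives, without ND ileum K4048 (−0.64, FDR 0.0368). The other estimates were −0.81 for Lgr5, 0.67 for Ascl2, 1.84 for Olfm4, −0.21 for Ephb3, −0.39 for Smoc2, −0.34 for Sox9, −0.18 for Cd44 and −0.07 for Rnf43, and that of Olfm4 turned to −0.20 without the K4028 colon and K4040 ileum libraries. For D3M against D1M, 0 of 10 passed with edgeR and 0 of 9 with DESeq2, with 1 at an unadjusted p under 0.05 (8.31% of all genes), Axin2 (0.64, SE 0.22, FDR 0.426). For D1M against ND, 0 of 10 passed with either tool and 0 had an unadjusted p under 0.05, which 5.66% of all genes had. With edgeR, 0% of all genes passed in these 2 comparisons. Lgr5 is in the counts of 10 but met the filter on low counts only through the ileum libraries. Its values here (SE 1.14 for D3M against ND) are therefore not read as a result.

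Most crypt genes differed between the tissues. Over all 18 rats, 8 of the 9 crypt genes other than Lgr5, which is given below by its reads, differed between colon and ileum, 4 of them higher and 4 lower in colon, in a comparison in which 73.2% of all genes passed (38.7% higher and 34.5% lower in colon). The receptors Ephb2 and Ephb3, Sox9 and Cd44 were the 4 higher in colon, and each was higher in colon than in ileum of the same rat in 18 of 18 rats. Ascl2 and Olfm4 were lower in colon in 18 of 18 rats, Axin2 in 17 and Smoc2 in 14, and the values of Lgr5 were lower in 12 and higher in 6. CPM in this paragraph and the next were scaled over the 36 libraries together.

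Cd44 was at 110, 133 and 176 CPM (lowest, median, highest of 18) in colon and 35.7, 63.4 and 82.1 CPM in ileum, without overlap (log2 fold change 1.13, SE 0.08, FDR 3.33e-15). Ephb2 was at 39.9, 55.4 and 68.3 CPM in colon and 20.6, 32.8 and 42.7 CPM in ileum (0.78, SE 0.08, FDR 7.01e-11). Ephb3 was at 24.1, 33.1 and 43.4 CPM in colon and 11.1, 17.4 and 23.7 CPM in ileum, again without overlap (0.85, SE 0.09, FDR 6.15e-10). Sox9 was at 26.7, 39.1 and 106 CPM in colon and 10.6, 18.6 and 32.2 CPM in ileum (1.19, SE 0.13, FDR 7.17e-10). The Ephb2 and Sox9 ranges overlapped only at their ends. The highest Sox9 ileum value was K4040, and without it and colon K4028 Sox9 ended at 24.1 CPM in ileum and did not overlap.

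Olfm4 was at 1.22, 3.44 and 197 CPM in colon and 115 to 528 CPM, with a median of 292 CPM, in ileum (−5.25, SE 0.55, FDR 4.34e-10). The colon value of 197 CPM was K4028, and without it and ileum K4040 the highest colon value was 8.44 CPM and the estimate −6.35 (SE 0.26, FDR 5.79e-20). Ascl2 was at 0.885, 2.60 and 6.52 CPM in colon and 5.40, 8.15 and 19.5 CPM in ileum (−1.82, SE 0.19, FDR 3.7e-10). Axin2 was at 14.7, 19.4 and 34.6 CPM in colon and 24.2, 32.9 and 47.3 CPM in ileum (−0.68, SE 0.10, FDR 2.48e-07). Smoc2 was at 19.2, 27.8 and 37.1 CPM in colon and 23.0, 38.2 and 68.1 CPM in ileum (−0.54, SE 0.11, FDR 7e-05). Lgr5 had 0 to 9 reads per colon library (0 to 0.474 CPM) and 0 to 13 per ileum library (0 to 0.758 CPM). It met the filter on low counts only through the ileum libraries, so no test between the tissues is given for it. Rnf43 had medians of 5.498 CPM in colon and 6.58 CPM in ileum and did not pass with edgeR (−0.25, SE 0.13, FDR 0.0839). It passed with DESeq2 (−0.30, adjusted p 0.0352), with RLE size factors (−0.29, FDR 0.0465) and without ileum of D3M rat P762 (−0.31, FDR 0.0153), and in 3 of 45 alternatives in all. The calls of the other 8 genes held in all 45 alternatives, each library left out among them. On each of the 3 flow cells the mean difference of each of these 8 genes had the sign of the pooled one.

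**Figure D5:**
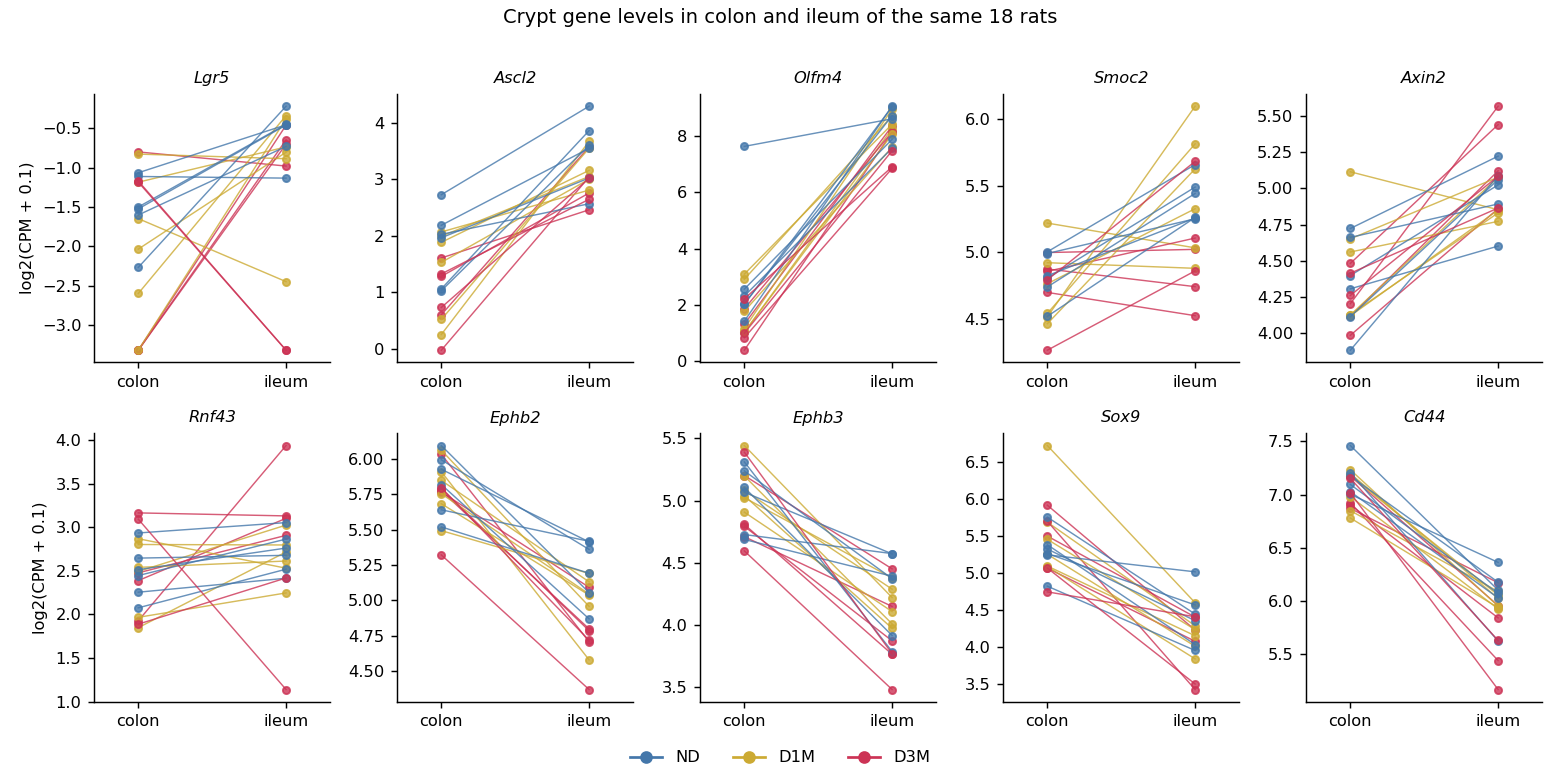
Level of each crypt gene as log2(CPM + 0.1) in colon (left) and ileum (right) of the same 18 rats, with 1 line per rat coloured by group. Lines fall toward ileum for Ephb2, Ephb3, Sox9 and Cd44 in all 18 rats and climb toward ileum for Ascl2 and Olfm4 in all 18, with K4028 as the 1 high Olfm4 colon.

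The wider crypt lists are set beside the 73.2% of all genes that passed between the tissues (38.7% higher and 34.5% lower in colon). Proliferation genes were lower in colon in 17 of 19 and higher in 1, with a median of −0.67, among them Mki67 (−0.81), Aurkb (−0.84), Mcm5 (−0.88) and Mcm6 (−0.80), all with FDR 2.69e-07 or less. All 8 Paneth cell genes tested were lower in colon, which lacks typical Paneth cells, with a median of −4.52. Of 5 further ephrin-B genes, 4 were higher in colon: Efnb1 (0.83), Ephb6 (1.5), Ephb4 (0.44) and Efnb2 (0.57), the ligands and receptors that act with Ephb2 and Ephb3. The Wnt pathway list had 6 higher and 9 lower of 19 tested, with Ccnd1 at 1.81 and Porcn at 1.02 among the higher and Lrp6 at −1.33 and Ctnnb1 at −1.16 among the lower. Smooth muscle genes were higher in colon in 5 of 6 tested (median log2 fold change 1.15), and their share in these differences was not tested.

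Olfm4, Ephb2, Ephb3 and Cd44 ran together across the 18 ileum libraries, with Pearson correlations of log2 CPM of 0.74 to 0.84 between them, while Axin2 and Ephb2 had 0.05. In the 18 colon libraries Ephb2 and Ephb3 had 0.61 and Olfm4 and Ephb2 0.07. Across the 18 ileum libraries, the genes whose log2 CPM ran most like Ephb2, among the 8375 genes whose log2 CPM averaged 3 or more, were Tfam and Dhx32 (Pearson r 0.922 each) and Prdx4 (0.916), and Tfam was also second for Ephb3 (0.936), after C1qbp (0.949). Tfam packages and transcribes mitochondrial DNA and C1qbp is a mitochondrial matrix protein. For Olfm4 the nearest were Tyms (0.935), the enzyme that makes thymidylate for DNA synthesis, Nutf2 (0.915) and Ccdc34 (0.908). For Cd44 they were Ranbp1 (0.957), Prmt7 (0.95) and Pa2g4 (0.936), for Ascl2 they were Trim27 (0.898), Nop14 (0.894) and Scamp4 (0.886), and for Smoc2 they were Tubb6 (0.887), Prelp (0.843), a proteoglycan of connective tissue, and Mipep (0.838). For Rnf43 they were Cdk13 (0.932), Fgfr3 (0.909) and Maz (0.902), for Sox9 Krt7 (0.829), Smarcal1 (0.80) and Mpg (0.792), and for Axin2 only weaker neighbours were found: Ilvbl (0.703), Zfp777 (0.693) and Man2c1 (0.667). Lgr5, with 0 to 13 reads, was nearest to Yeats2 (0.922), Reps1 (0.865) and Mad2l1 (0.857), with Spearman's rho of 0.622, 0.275 and 0.589. These correlations are descriptions over libraries that share groups, flow cells and tissue make-up.

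In the 18 colon libraries the neighbours were different genes. Ephb2 ran most like LOC498154 (0.855), Cfdp1 (0.819) and Srpx2 (0.805), Ephb3 most like Kat5 (0.778), RGD1562200 (0.692) and Zfp628 (0.685), and Cd44 most like Dcdc2 (0.789), Prpf18 (0.74) and Syt13 (0.732). Olfm4 in colon was nearest to Sfxn1 (0.953), Anpep (0.908) and Dpp4 (0.901), the last 2 being brush border peptidases of the small intestine, and its Spearman's rho with them was 0.779, 0.536 and 0.49, with K4028 far from the rest. Ascl2 had high correlations with Iqgap1 (0.797) and Hebp1 (0.794). Axin2 was nearest to Pycrl (0.856), Npas2 (0.771) and Pkp1 (0.77), and Smoc2 to Nsmce2 (0.834), Ergic3 (0.834) and RGD1310127 (0.832). Sox9 was nearest to Mafg (0.858), Med10 (0.854) and Lsm12 (0.85), and Rnf43 had high correlations with Mtmr2 (0.906) and Car12 (0.895).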

How the data were processed

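Poly-A RNA of whole ileum and proximal colon had been sequenced from stranded libraries on a NextSeq 500. The authors aligned reads with STAR to rn6 and deposited whole-number counts per gene from SeqMonk. Whether strand was used is not given in the sources read here. A second deposited table of log2 values was not used. Tissue and group came from the labels, and each of the 36 libraries is 1 tissue of 1 of 18 rats.

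Counts were tested with edgeR 4.0.16 (TMM scaling, filterByExpr, quasi-likelihood test, Benjamini-Hochberg adjustment over all genes of a fit, threshold 0.05), with flow cell as a covariate, in R 4.3.3. The fit was made for the 18 libraries of each tissue (13026 genes tested in ileum, 12906 in colon) and for all 36 (13697 genes), where colon was set against ileum and the difference of a group contrast between the tissues was tested. CPM are scaled by TMM, and standard errors of log2 fold changes belong to the same fits. The fits were tested first on simulated data with changes planted in genes with many reads. The simulation held no flow cell effect, and its planted changes were larger than the Ephb2 difference. Both tissues came from the same rats, so the replicate numbers pair libraries across tissues by animal. The rat as a replicate block, DESeq2 1.42.0, RLE size factors, 2 other filters, no flow cell term, flow cell subsets, cell make-up covariates (limma 3.58.1 for the blocked interaction) and each library left out were the alternatives.

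All 10 crypt genes are named in every comparison. Of each pathway or marker list at most the 4 genes with the smallest p among those that passed are named, and for each crypt gene the 3 genes with the highest Pearson correlation of log2 CPM (prior count 2) among genes whose log2 CPM averaged 3 or more. Some results that these rules name are not reported here. The crypt genes and lists were chosen with earlier results of these data known. Libraries held 12279059 to 21510043 counts in ileum and 10024041 to 18299050 in colon, and the median biological coefficient of variation over genes was 0.183 in ileum and 0.19 in colon.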

Additional observations from a re-analysis of the deposited data

Results flagged for a closer look

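The highest sample of a group of 6 stood apart from the others by Dixon's ratio in 3 of 60 groups (10 crypt genes, 2 tissues, 3 conditions), and chance alone gives such a gap in about 1 group in 20.

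Olfm4 stood at 209.1 CPM in the colon of ND rat K4028, against 2.76 to 6.12 CPM in the other ND colons. That library also held 9753 CPM of ileal genes, and without it the colon log2 fold change of D3M over ND was −0.71, against −2.94 with it.

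Sox9 stood at 111.4 CPM in the colon of D1M rat K3986, against 35.8 to 54.2 CPM in the other D1M colons.

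Cd44 stood at 189.7 CPM in the colon of ND rat K4037, against 136 to 154 CPM in the other ND colons.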

How the results depend on the processing

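The call of Ephb2 in ileum (D3M over ND) kept its direction in all 33 alternatives and stayed under an FDR of 0.05 in 29, and the calls of 8 crypt genes between colon and ileum (Lgr5 left aside) held in all 45. Of the members' values under the alternatives other than a library left out, 1042 kept direction and side of the threshold and 53 turned sign, none of them a called value in the reported fit. The rat as replicate block changed no call of a crypt gene. Lgr5, with 0 to 13 reads, is limited by depth. The causes of the changes were not tested. In colon, the libraries rich in B cell genes were the 5 whose mean log2 CPM of the 8 B cell genes tested there was over 3. 

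Without the libraries rich in B cell genes (chosen after seeing the data) genes called were 0 of all genes (colon D3M vs ND), 0 of all genes (ileum D1M vs ND), 130 of all genes (ileum D3M vs ND), 0 (members, ileum D3M vs ND), and signs turned for colon D1M vs ND Ephb2 0.032, colon D3M vs D1M Cd44 0.001, ileum D1M vs ND Ascl2 0.27 and Axin2 0.002 and Cd44 0.14 and Lgr5 0.033 and Olfm4 0.030. On flow cell 3 alone genes called were 0 of all genes (colon D3M vs ND), 0 of all genes (ileum D1M vs ND), 7 of all genes (ileum D3M vs D1M), 251 of all genes (ileum D3M vs ND), and signs turned for colon D1M vs ND Ephb3 −0.026 and Smoc2 0.068, colon D3M vs D1M Ephb2 0.029 and Smoc2 −0.30, colon D3M vs ND Rnf43 −0.000, ileum D1M vs ND Smoc2 −0.057, ileum D3M vs D1M Axin2 −0.081 and Rnf43 −0.58 and Smoc2 0.051, ileum D3M vs ND Axin2 −0.23. With DESeq2 genes called were 11 of all genes (colon D1M vs ND), 1 of all genes (colon D3M vs D1M), 72 of all genes (colon D3M vs ND), 44 of all genes (ileum D1M vs ND), 989 of all genes (ileum D3M vs D1M), 2 (members, ileum D3M vs ND), 21 of all genes (ileum minus colon, D1M vs ND), 19 of all genes (ileum minus colon, D3M vs D1M), 514 of all genes (ileum minus colon, D3M vs ND). Without flow cell 2 genes called were 0 of all genes (colon D3M vs ND), 0 of all genes (ileum D1M vs ND), 130 of all genes (ileum D3M vs D1M), 561 of all genes (ileum D3M vs ND), 1 of all genes (ileum minus colon, D3M vs D1M), 7 of all genes (ileum minus colon, D3M vs ND), and signs turned for colon D3M vs D1M Ephb2 0.016 and Smoc2 −0.18, ileum minus colon, D1M vs ND Lgr5 0.19, ileum minus colon, D3M vs D1M Lgr5 3.55 and Rnf43 −0.021, ileum minus colon, D3M vs ND Lgr5 3.75 and Smoc2 0.009. With the B cell score as a covariate signs turned for colon D3M vs D1M Smoc2 −0.027. Without a flow cell term genes called were 0 of all genes (colon D3M vs ND), 3007 of all genes (ileum D3M vs ND), 761 of all genes (ileum minus colon, D3M vs ND), and signs turned for colon D3M vs D1M Smoc2 −0.002, ileum D3M vs ND Rnf43 0.23, ileum minus colon, D3M vs D1M Ephb3 −0.040, ileum minus colon, D3M vs ND Rnf43 0.19. With only the groups compared in the fit genes called were 315 of all genes (colon D3M vs ND), 185 of all genes (ileum D3M vs ND), 0 (members, ileum D3M vs ND), and signs turned for colon D3M vs D1M Smoc2 −0.066, ileum D1M vs ND Axin2 0.011 and Smoc2 −0.080. With the epithelium score as a covariate genes called were 0 of all genes (colon D3M vs ND), and signs turned for ileum D1M vs ND Smoc2 −0.036, ileum D3M vs ND Rnf43 0.16. Without colon K4028 and ileum K4040 genes called were 4 of all genes (colon D3M vs ND), 1 of all genes (ileum D1M vs ND), 1024 of all genes (ileum D3M vs ND), 1 of all genes (ileum minus colon, D1M vs ND), 37 of all genes (ileum minus colon, D3M vs ND), and signs turned for ileum D1M vs ND Smoc2 −0.034 and Sox9 0.007, ileum D3M vs ND Rnf43 0.018, ileum minus colon, D1M vs ND Ascl2 −0.11 and Olfm4 −0.21, ileum minus colon, D3M vs ND Olfm4 −0.20 and Rnf43 0.032. With the smooth muscle score as a covariate genes called were 7 of all genes (colon D3M vs ND), 602 of all genes (ileum D3M vs D1M), and signs turned for ileum D1M vs ND Smoc2 −0.054. Without ileum P762 and P780 (chosen after seeing the data) genes called were 41 of all genes (ileum D3M vs D1M), 1 (members, ileum D3M vs D1M), 443 of all genes (ileum D3M vs ND), and signs turned for ileum D1M vs ND Axin2 0.021 and Smoc2 −0.071, ileum D3M vs D1M Ascl2 0.16 and Ephb3 0.021 and Sox9 0.066, ileum D3M vs ND Ascl2 0.089 and Rnf43 0.41. Without the low-count filter genes called were 189 of all genes (ileum D3M vs D1M). With the rat as replicate block genes called were 122 of all genes (ileum minus colon, D3M vs ND), and signs turned for ileum minus colon, D1M vs ND Lgr5 0.16, ileum minus colon, D3M vs D1M Olfm4 −0.15, ileum minus colon, D3M vs ND Lgr5 0.015 and Rnf43 0.031. With the quasi-likelihood method of edgeR's newer version genes called were 1 of all genes (ileum minus colon, D3M vs D1M). With each library left out in turn, genes called ran over colon D3M vs D1M all genes 0 to 2, colon D3M vs ND all genes 0 to 10, ileum D1M vs ND all genes 1 to 3, ileum D3M vs D1M all genes 6 to 761 and members 0 to 1, ileum D3M vs ND all genes 675 to 2437 and members 1 to 4, ileum minus colon, D1M vs ND all genes 0 to 28, ileum minus colon, D3M vs D1M all genes 0 to 5, ileum minus colon, D3M vs ND all genes 46 to 728 and members 0 to 1, and log2 fold changes whose sign turned ran over colon D1M vs ND Axin2 −0.022 to 0.19 and Ephb2 −0.099 to 0.002, colon D3M vs D1M Cd44 −0.11 to 0.026 and Smoc2 −0.054 to 0.077 and Sox9 −0.29 to 0.023, colon D3M vs ND Rnf43 −0.050 to 0.16 and Sox9 −0.038 to 0.19, ileum D1M vs ND Ascl2 −0.38 to 0.22 and Axin2 −0.16 to 0.055 and Cd44 −0.27 to 0.032 and Smoc2 −0.069 to 0.27 and Sox9 −0.39 to 0.007, ileum D3M vs D1M Rnf43 −0.086 to 0.38 and Sox9 −0.24 to 0.034, ileum D3M vs ND Ascl2 −0.63 to 0.071 and Rnf43 −0.27 to 0.23, ileum minus colon, D1M vs ND Cd44 −0.14 to 0.15 and Lgr5 −1.06 to 0.020 and Olfm4 −0.43 to 2.21, ileum minus colon, D3M vs D1M Ephb3 −0.055 to 0.18 and Lgr5 −0.83 to 0.047 and Olfm4 −0.21 to 0.92 and Rnf43 −0.15 to 0.29 and Sox9 −0.13 to 0.26, ileum minus colon, D3M vs ND Olfm4 −0.43 to 2.27 and Rnf43 −0.26 to 0.21.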
